A study of Homo sapiens with 24 samples.

Results

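The secreted Wnt antagonist DKK1 and 9 other genes of Wnt signalling (DKK3, AXIN2, LGR5, RNF43, ZNRF3, NKD1, LEF1, TCF7 and PTK7) were followed in cancer cell lines with a PTDSS2 knockout and their parents, treated or not with an inhibitor of PTDSS1. The 10 genes were taken by symbol from the 25343 genes listed in every library. DKK1 was chosen by its lower RNA level in the inhibitor-treated knockout cells of these same libraries, so that comparison is described below for the 10 genes without a test, as is the difference between its size in knockout and parent cells. PTDSS1 and PTDSS2 are the 2 enzymes that make phosphatidylserine, a phospholipid of the inner leaflet of the plasma membrane. The knockout cells were PTDSS2-KO#3 of HCT116, a colon cancer line, and PTDSS2-KO#54 of A375, a melanoma line; the parents were wild type for PTDSS2, per the labels. Each of these 4 cell populations received the PTDSS1 inhibitor DS07551382 at 0.1 µM or the vehicle DMSO for 24 h, which gave 8 groups of 3 libraries. A knockout clone differs from its parent by its passage through a single selected line as well as by PTDSS2, and with 1 clone in each line these cannot be told apart. The labels do not say whether the 3 libraries of a group came from separate cultures, so p-values cover no more than the spread seen among them, and part of it may be technical.

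Canonical Wnt signalling keeps beta-catenin from being destroyed, and beta-catenin then switches on target genes together with TCF and LEF proteins on DNA. Several of those targets act back on the pathway: DKK1 blocks the LRP5 and LRP6 coreceptors from outside the cell, RNF43 and ZNRF3 remove Frizzled receptors from the surface, AXIN2 rebuilds the complex that destroys beta-catenin, and NKD1 binds Dishevelled. In colon epithelium these genes are used as a readout of pathway activity, and HCT116 cells carry an activating mutation of beta-catenin. DKK1 is also a target of other regulators, among them YAP and its TEAD partners.

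Library totals were 6211629 to 11688267 expected counts, which are the reads or read pairs that the authors' software assigned to genes (median 9200460), and 15713 to 16719 genes had a count. Levels are given in TPM, which scales each gene for transcript length and each library to the same total. PTDSS2 averaged 4.73 ± 1.00 TPM in inhibitor-treated and 5.48 ± 1.05 TPM in vehicle-treated HCT116 knockout cells, against 31.2 and 30.1 TPM in the parent groups (SD, n = 3 each). In A375 it averaged 1.38 TPM in inhibitor-treated and 0.727 TPM in vehicle-treated knockout cells, against 19.1 and 19.7 TPM in the parent groups. The summed TPM of 11 colon epithelial markers was 296 to 404 in A375 libraries and 4280 to 5230 in HCT116 libraries, although VIL1, CDX1, LGALS4 and CDH17 had a median of 0 TPM in HCT116. The summed TPM of 10 melanocyte markers was 728 to 942 in A375 libraries and 17.8 to 28.0 in HCT116 libraries. In A375, SOX10 had a median of 284 TPM and MITF 13.2 TPM, while TYR was at 0, and PMEL (0.26 TPM), MLANA (0.52), DCT (0.22) and TYRP1 (0.07) were near 0, so 5 of the 10 reached a median of 1 TPM. PMEL was the higher in HCT116, at 2.96 TPM.

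The sequence just before the DKK1 transcription start is shown because DKK1 had the largest differences of the 10 genes in the inhibitor-treated knockout cells. The windows of RNF43, which was lower together with DKK1 in the HCT116 knockout clone, and of PTK7, which was higher there, are set beside it. RefSeq promoter windows in the GRCh38.p14 build were held for 5 of the 10 genes (DKK1, RNF43, LEF1, TCF7 and PTK7), and the 250 bases before the start are given in the direction of transcription. Each window was searched on both strands for the TCF/LEF core CTTTGA (reverse complement TCAAAG) and the TEAD core GGAATG (reverse complement CATTCC), which do not overlap each other in these windows, and matches are in capitals. DKK1 lies on chromosome 10 on the plus strand (chr10:52314031-52314280), RNF43 on chromosome 17 on the minus strand (chr17:58417535-58417784, the first of its 2 start records), and PTK7 on chromosome 6 on the plus strand (chr6:43076064-43076313, the first of 2 records).
DKK1: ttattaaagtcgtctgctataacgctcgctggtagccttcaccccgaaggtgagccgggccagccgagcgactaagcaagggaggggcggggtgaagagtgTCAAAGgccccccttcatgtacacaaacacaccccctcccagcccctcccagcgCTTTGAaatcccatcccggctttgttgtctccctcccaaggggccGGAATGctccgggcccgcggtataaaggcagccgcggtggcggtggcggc
RNF43: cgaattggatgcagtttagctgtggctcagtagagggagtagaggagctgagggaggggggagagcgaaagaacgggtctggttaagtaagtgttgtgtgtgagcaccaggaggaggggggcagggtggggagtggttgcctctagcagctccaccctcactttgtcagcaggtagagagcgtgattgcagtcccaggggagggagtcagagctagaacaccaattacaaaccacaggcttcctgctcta
PTK7: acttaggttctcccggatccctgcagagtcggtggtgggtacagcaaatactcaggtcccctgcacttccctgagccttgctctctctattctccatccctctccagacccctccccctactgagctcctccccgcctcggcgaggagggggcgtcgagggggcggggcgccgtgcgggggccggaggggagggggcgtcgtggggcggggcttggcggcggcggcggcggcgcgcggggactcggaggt
The DKK1 window held 2 TCF/LEF cores, which began 149 and 95 bases before the start, and 1 TEAD core, which began 50 bases before it. Of 35116 RefSeq windows of the same 250 bases, 11.2% held the TCF/LEF core and 11.9% held the TEAD core. The RNF43 and PTK7 windows shown held neither, and the second RNF43 window (chr17:58402722-58402971) held 2 TEAD cores. The windows of LEF1 and TCF7 held neither motif as searched. Forms that differ by a letter, such as CTTTGT in the DKK1 and RNF43 windows shown, were not searched and stay in lower case. These matches describe the letters of the window and are not binding data.

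DKK1 RNA was lower in inhibitor-treated than in vehicle-treated knockout cells of both lines. In HCT116 knockout cells it stood at 20.4, 23.6 and 20.4 TPM with the inhibitor, against 109.8, 119 and 118 TPM with vehicle. These 2 groups were far apart, and the log2 fold change fitted to the counts was -2.43 ± 0.07 (approximate SE), or 0.186 times the vehicle level. In A375 knockout cells DKK1 stood at 189, 181 and 192 TPM with the inhibitor, against 334, 354 and 347 TPM with vehicle. The groups again did not overlap, with a log2 fold change of -0.91 ± 0.03, or 0.532 times the vehicle level. In bulk RNA, fewer cells with DKK1 RNA and less of it per cell cannot be told apart. The inhibitor's effect in knockout cells minus that in parent cells was -2.48 ± 0.08 in HCT116 and -1.01 ± 0.05 in A375 on the log2 scale.

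In the parent cells, no difference in DKK1 with the inhibitor was called. The genes were chosen with the knockout minus parent contrast known, which holds these parent libraries. The parent comparison is therefore not independent of that choice. HCT116 parent cells held 317, 327 and 325 TPM of DKK1 with the inhibitor, against 321, 321 and 304 TPM with vehicle, and these libraries overlapped. The log2 fold change was 0.05 ± 0.04, with an adjusted p of 0.9994 by edgeR's quasi-likelihood test, adjusted by the Benjamini-Hochberg method over all genes tested. A375 parent cells held 211, 214 and 216 TPM with the inhibitor, against 199, 204 and 200.4 TPM with vehicle. Every inhibitor library lay above every vehicle library here, but the log2 fold change of 0.10 ± 0.04 was not called (adjusted p = 0.5117 by edgeR).

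The knockout clones differed from their parents in vehicle, and in opposite directions. In HCT116, DKK1 averaged 115 ± 4.96 TPM in the knockout clone and 315 ± 9.75 TPM in the parent (SD, n = 3 each), a log2 fold change of -1.43 ± 0.04 with an adjusted p of 7.099e-40 by edgeR. In A375, DKK1 averaged 345 ± 10.5 TPM in the knockout clone and 201 ± 2.37 TPM in the parent, a log2 fold change of 0.82 ± 0.03 with an adjusted p of 6.097e-28 by edgeR. The clone difference in A375 minus that in HCT116 was 2.23 ± 0.05 on the log2 scale (adjusted p = 1.704e-57 by edgeR over all 24 libraries). The inhibitor comparison in each line was thus made at a different starting level of DKK1. The vehicle-treated knockout libraries were also the reference side of the comparison that chose DKK1. The p-values of its clone differences are therefore not independent of that choice.

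Across the 8 groups the order of DKK1 levels did not follow line, genotype or treatment alone. A375 knockout cells in vehicle were highest at 345 TPM, followed by the inhibitor-treated and vehicle-treated HCT116 parents at 323 and 315 TPM, whose libraries overlapped. The A375 parents came next, at 213 TPM with the inhibitor and 201 TPM with vehicle, and then inhibitor-treated A375 knockout cells at 187 ± 6.09 TPM. HCT116 knockout cells were lowest, at 115 TPM in vehicle and 21.5 ± 1.85 TPM with the inhibitor. Apart from the HCT116 parents, no neighbours in this order had overlapping libraries. Between the parents in vehicle, DKK1 was lower in A375 than in HCT116, with a log2 fold change of -0.59 ± 0.04 (adjusted p = 1.53e-27 by edgeR), in a comparison in which 81.8% of 14637 genes were called.

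**Figure D1:**
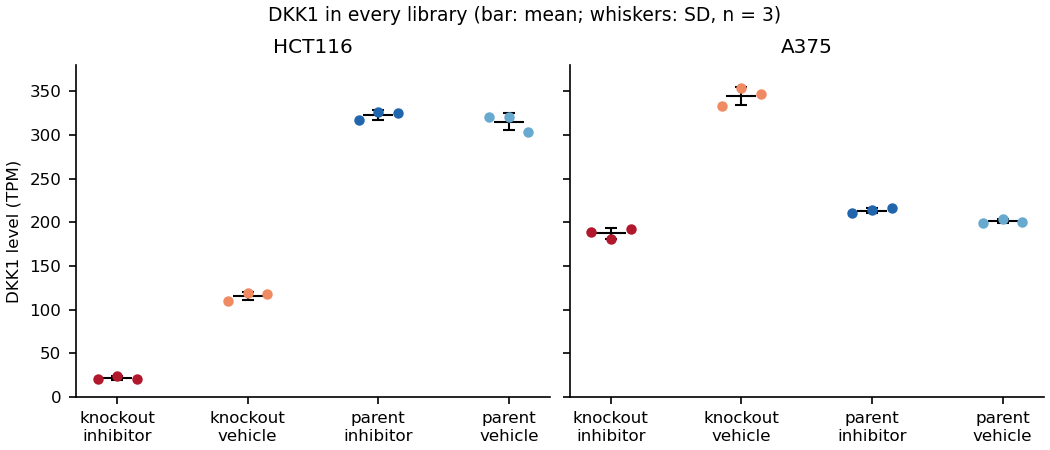
DKK1 level in TPM in each of the 24 libraries (points), with the mean (bar) and SD (whiskers, n = 3) of each group, HCT116 on the left and A375 on the right. Inhibitor-treated HCT116 knockout cells sit near 21.5 TPM, and in A375 the vehicle-treated knockout cells at 345 TPM stand above the 3 other groups.

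DKK3, a secreted relative of DKK1 that does not share its block of LRP coreceptors, was close to silent in HCT116. Its 12 HCT116 libraries held 0 to 3 counts each, 21 in all, and it did not enter the tests there. In A375 DKK3 stood at 5.06, 4.01 and 5.73 TPM in inhibitor-treated and 5.24, 5.07 and 3.10 TPM in vehicle-treated knockout cells. The A375 parents held 5.02, 4.83 and 4.87 TPM with the inhibitor, and 4.92, 5.14 and 5.91 TPM with vehicle. The knockout groups overlapped each other and both parent groups. The clone difference was -0.23 ± 0.18 on the log2 scale (adjusted p = 0.4467 by edgeR).

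AXIN2, the scaffold of the beta-catenin destruction complex most often used as a Wnt target, was lower in the HCT116 knockout clone than in its parent. Vehicle-treated knockout cells held 5.40, 5.46 and 6.36 TPM, against 9.77, 10.1 and 9.56 TPM in the vehicle-treated parent. The log2 fold change was -0.75 ± 0.11 with an adjusted p of 5.631e-08 by edgeR. Inhibitor-treated knockout cells held 5.35, 6.86 and 5.85 TPM and overlapped their vehicle controls (log2 fold change 0.06 ± 0.12). In the parent, AXIN2 stood at 8.38, 8.22 and 7.81 TPM with the inhibitor, below all 3 vehicle libraries, but the log2 fold change of -0.26 ± 0.10 was not called (adjusted p = 0.9994 by edgeR). In A375, AXIN2 had 1 to 6 counts in a library and was not tested within the line.

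NKD1, which binds Dishevelled and dampens the pathway, did not differ detectably between the HCT116 clone and its parent. It stood at 2.09, 2.08 and 1.83 TPM in inhibitor-treated HCT116 knockout cells, against 3.16, 2.35 and 2.53 TPM in vehicle. All 3 inhibitor libraries lay below the vehicle libraries, with a log2 fold change of -0.41 ± 0.14. The HCT116 parent groups averaged 2.80 ± 0.0153 TPM with the inhibitor and 2.80 ± 0.26 TPM with vehicle. The clone difference of -0.05 ± 0.13 was not called (adjusted p = 0.84 by edgeR). A375 libraries held 5 to 11 counts of NKD1 and were not tested within the line.

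RNF43 and ZNRF3 are paralogous membrane ubiquitin ligases that clear Frizzled receptors, and LGR5 is an R-spondin receptor through which R-spondins hold them off. RNF43 was lower in the HCT116 clone: vehicle-treated knockout cells held 13.6, 12.2 and 13.0 TPM, against 32.0, 30.5 and 36.4 TPM in the vehicle-treated parent. The log2 fold change was -1.33 ± 0.07 with an adjusted p of 3.156e-27 by edgeR. The inhibitor-treated knockout cells held 13.6, 13.2 and 12.7 TPM and overlapped their vehicle controls, and the log2 fold change was 0.03 ± 0.08. The inhibitor-treated HCT116 parent held 30.7, 30.6 and 33.1 TPM and overlapped its vehicle control. In A375 RNF43 had 5 counts in 12 libraries together, out of 114119472 counts, and was not tested within the line.

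ZNRF3, unlike RNF43, was present in both lines. HCT116 knockout cells held 10.5, 9.04 and 9.21 TPM with the inhibitor, against 8.79, 7.27 and 8.36 TPM with vehicle, and the groups did not overlap. The log2 fold change was 0.25 ± 0.09, and it was 0.16 without inhibitor-treated knockout replicate 1. The HCT116 parents averaged 7.60 and 7.62 TPM with inhibitor and vehicle, and the clone difference of 0.09 ± 0.09 was not called (adjusted p = 0.4993 by edgeR). In A375, ZNRF3 averaged 3.86 TPM in inhibitor-treated and 3.97 TPM in vehicle-treated knockout cells, and 4.98 and 4.53 TPM in inhibitor- and vehicle-treated parent cells. Its A375 clone difference of -0.16 ± 0.12 was not called either (adjusted p = 0.4019 by edgeR). Between the parents in vehicle, ZNRF3 was lower in A375 than in HCT116 by a log2 fold change of -0.71 ± 0.10 (adjusted p = 4.018e-10 by edgeR).

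LGR5 was near the detection limit in every group. No library held more than 3 counts, and the sums were 8 counts over the 12 A375 libraries and 4 over the 12 HCT116 libraries. A count of 0 in the shallowest HCT116 library allows up to 0.483 CPM, a count scaled to the library total, taking 3 counts as the limit and covering counting error only. Changes in LGR5 were not detectable at this depth.

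LEF1 and TCF7 encode DNA-binding partners of beta-catenin, and their RNA levels differed between the lines in opposite directions. LEF1 had 0 counts in all 12 HCT116 libraries, out of 102688177 counts, which allows up to 0.0292 CPM over those libraries. The A375 parent in vehicle held 24.7, 24.1 and 25.4 TPM of LEF1, and its 38.2 CPM was at least 368-fold higher than the limit of 0.104 CPM that 3 counts over the vehicle-treated HCT116 parent libraries allow. The A375 knockout clone in vehicle held 18.4, 21.8 and 20.7 TPM, below all 3 parent libraries. The log2 fold change was -0.26 ± 0.07 (adjusted p = 0.008448 by edgeR), and without vehicle-treated knockout replicate 1 it was -0.19 and was no longer called. With the inhibitor, LEF1 averaged 19.2 TPM in A375 knockout cells and 24.2 TPM in the parent, and inhibitor and vehicle libraries overlapped in both (log2 fold changes -0.12 ± 0.07 and -0.02 ± 0.07).

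TCF7 was the higher of the pair in HCT116. It stood at 17.1, 14.8 and 20.5 TPM in inhibitor-treated HCT116 knockout cells, against 20.1, 19.9 and 21.0 TPM in vehicle, and these libraries overlapped. The log2 fold change was -0.24 ± 0.09. It was -0.13 without inhibitor-treated knockout replicate 2 and -0.35 without replicate 3, so single libraries set its size. The HCT116 parents held 22.7, 22.5 and 23.1 TPM with the inhibitor, against 23.9, 22.2 and 22.9 TPM with vehicle. The clone difference of -0.15 ± 0.08 was not called (adjusted p = 0.1715 by edgeR).

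In A375, TCF7 was low and was lower still in the knockout clone. Vehicle-treated A375 knockout cells held 0.50, 0.85 and 0.93 TPM from 8, 11 and 14 counts, against 2.11, 3.01 and 1.25 TPM from 27, 35 and 16 counts in the vehicle-treated parent. The groups did not overlap, and the log2 fold change was -1.40 ± 0.32 (adjusted p = 0.0007128 by edgeR). Inhibitor-treated knockout cells held 1.2, 1.13 and 1.57 TPM, above all 3 vehicle libraries, with a log2 fold change of 0.68 ± 0.33. The clone difference in A375 minus that in HCT116 was -1.26 ± 0.29 (adjusted p = 0.0007453 by edgeR). Between the parents in vehicle, TCF7 was lower in A375 than in HCT116 by a log2 fold change of -3.40 ± 0.14 (adjusted p = 8.87e-42 by edgeR).

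PTK7, a pseudokinase receptor that takes part in planar cell polarity and binds Wnt receptors, was the only called gene of the 10 that was higher in the HCT116 clone. Vehicle-treated knockout cells held 143, 138 and 134 TPM, against 71.7, 70.0 and 73.7 TPM in the vehicle-treated parent, a log2 fold change of 0.95 ± 0.04 (adjusted p = 5.102e-33 by edgeR). Inhibitor-treated HCT116 knockout cells held 160, 155 and 163 TPM, above every vehicle library, with a log2 fold change of 0.22 ± 0.03. The inhibitor-treated HCT116 parent held 71.0, 73.0 and 73.2 TPM, within the range of its vehicle control, and its log2 fold change was 0.01 ± 0.04. In A375 all 4 groups lay between 16.0 and 19.8 TPM, and the clone difference of 0.05 ± 0.07 was not called (adjusted p = 0.7365 by edgeR). The clone difference in A375 minus that in HCT116 was -0.91 ± 0.08 (adjusted p = 2.61e-17 by edgeR). Between the parents in vehicle, PTK7 was lower in A375 than in HCT116 by a log2 fold change of -1.94 ± 0.05 (adjusted p = 4.403e-55 by edgeR).

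**Figure D2:**
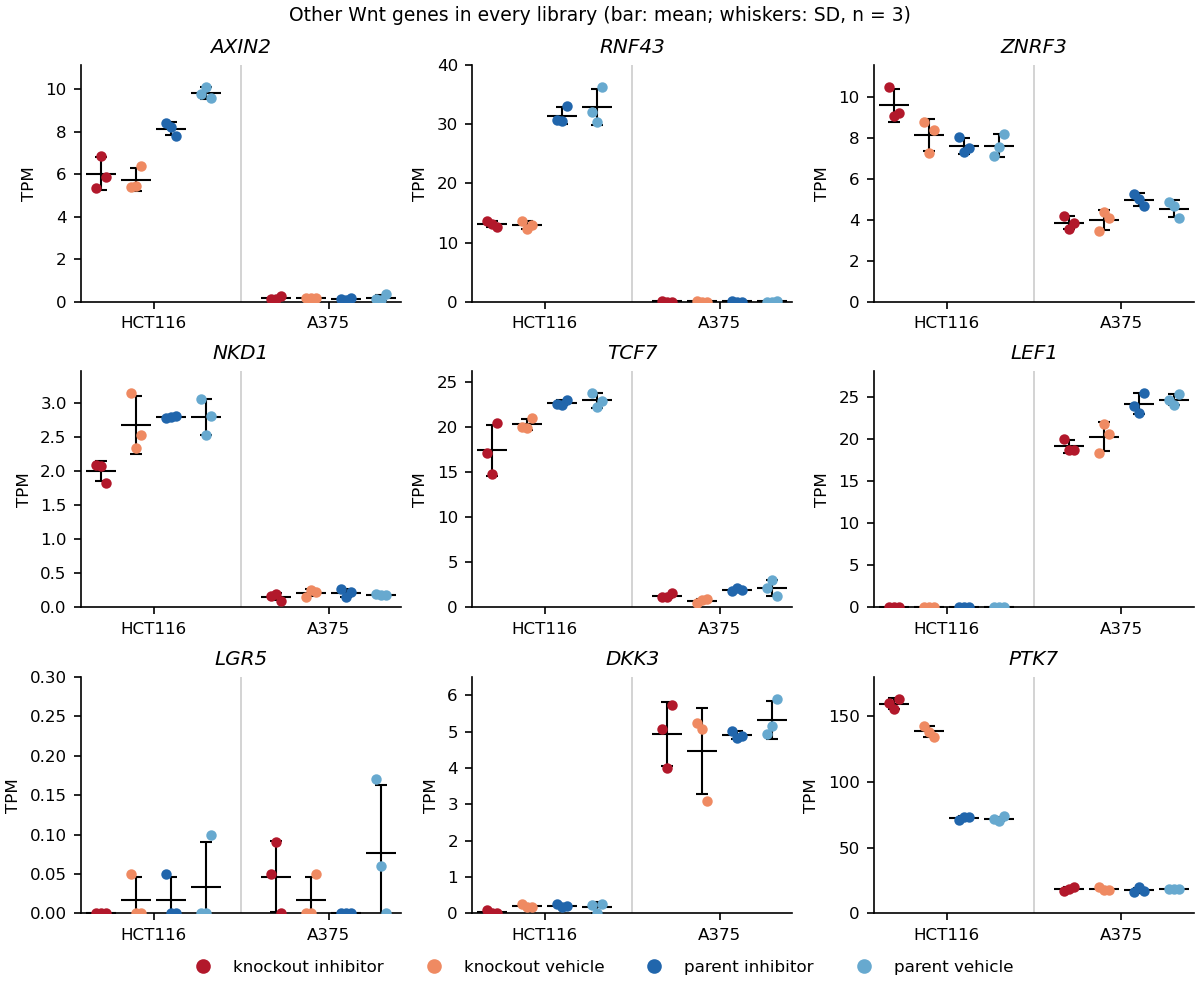
Levels of the 9 other genes in TPM in each library (points), with the group mean (bar) and SD (whiskers, n = 3), each panel on its own axis. AXIN2, RNF43 and TCF7 were mainly HCT116 transcripts and LEF1 and DKK3 A375 transcripts, and within HCT116 RNF43 and PTK7 split by clone and parent.

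Counted over the genes with enough counts to be tested, 7 of the 10 entered the HCT116 tests (all but DKK3, LGR5 and LEF1) and 6 the A375 tests (all but AXIN2, LGR5, RNF43 and NKD1). Between the HCT116 knockout clone and its parent in vehicle, 4 of 7 were called, with PTK7 higher and DKK1, AXIN2 and RNF43 lower, beside 21.3% of all 13164 genes tested. Between the A375 clone and its parent, 3 of 6 were called, with DKK1 higher and LEF1 and TCF7 lower, beside 16.3% of 13455 genes. DKK1 was the only one of the 10 called in both lines, with opposite signs. Its calls share the vehicle-treated knockout libraries with the comparison that chose it. The other genes were also chosen with earlier results of these data known, so the counts called here are not independent of the choice. The clone effect could be compared between the lines for DKK1, ZNRF3, TCF7 and PTK7, which had enough counts in each. Of these, DKK1, PTK7 and TCF7 were called and ZNRF3 was not (-0.26 ± 0.14, adjusted p = 0.2247 by edgeR). The others had too few counts in at least 1 line. Counted over the 9 of the 10 genes that entered this fit, 3 were called (33.3%), beside 17.7% of all 14637 genes.

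With the inhibitor in HCT116 knockout cells, the fitted log2 fold changes of the 7 ran from -2.43 for DKK1 to 0.25 for ZNRF3, in a comparison where 37.1% of all genes were called. In A375 knockout cells those of the 6 ran from -0.91 for DKK1 to 0.68 for TCF7, where 37.5% of all genes were called. The inhibitor effect in knockout minus parent cells ran from -2.48 for DKK1 to 0.32 ± 0.16 for AXIN2 in HCT116, where 24.9% of genes were called, and was 0.21 ± 0.05 for PTK7. In A375 it ran from -1.01 for DKK1 to 0.78 ± 0.42 for TCF7, where 27.3% of genes were called. In the parents none of them was called with the inhibitor: 0% of genes were called in HCT116, with 0 of 13164 by edgeR and limma-voom, 1 by DESeq2 and 530 at an unadjusted p under 0.05. In the A375 parent 0.104% of genes, 14 in all, were called.

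**Figure D3:**
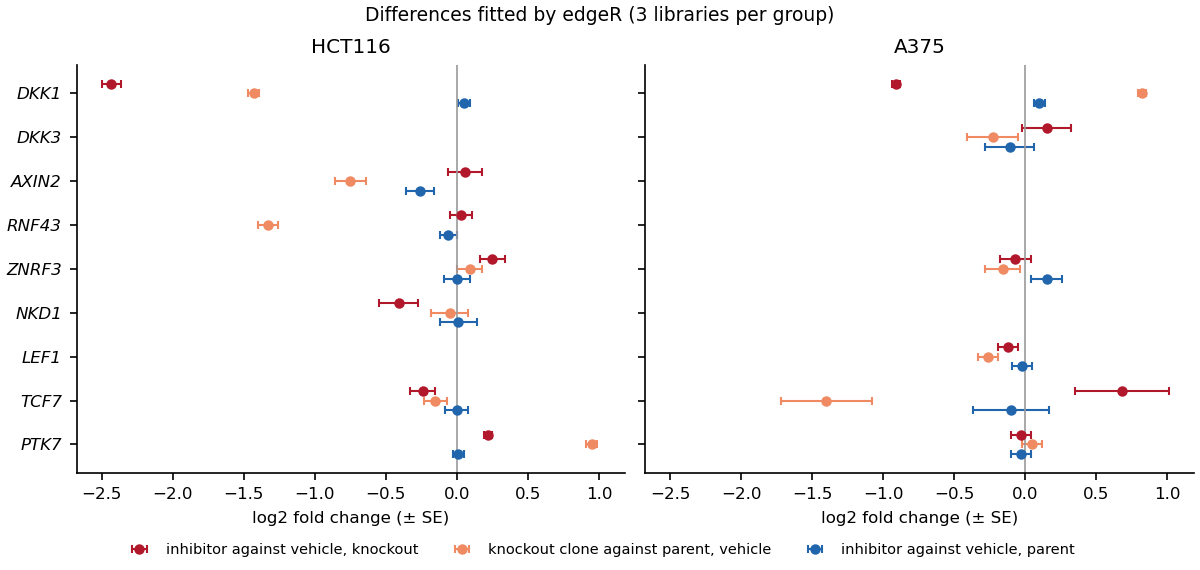
Log2 fold changes fitted by edgeR (points) with approximate SE (bars) for the genes that entered the tests in each line. The comparisons are inhibitor against vehicle in knockout cells, knockout clone against parent in vehicle, and inhibitor against vehicle in parent cells. DKK1 has clone effects of -1.43 in HCT116 and 0.82 in A375, while its inhibitor effects in knockout cells, -2.43 and -0.91, share a sign.

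The other genes of the pathway were read from 7 lists of 117 genes that exclude the 10. With the inhibitor in HCT116 knockout cells, 12 rose and 13 fell of 81 tested, which is 30.9% and below the 37.1% of all genes. Among the other secreted or surface antagonists, a list without DKK1, 2 of 6 rose and none fell. NOTUM, which strips the lipid from Wnt proteins, reached 14.7 ± 0.964 TPM in inhibitor-treated HCT116 knockout cells, against 5.35 TPM in vehicle (log2 fold change 1.46 ± 0.15). Among the other transcriptional targets 2 of 10 rose and 3 fell. CD44, a hyaluronan receptor, rose to 358 ± 7.83 TPM with the inhibitor, against 182 ± 7.77 TPM in vehicle, and CCND1, which encodes cyclin D1, fell to 319 ± 1.86 TPM, against 503 ± 6.31 TPM. Among the ligands 2 of 11 fell, and WNT16 was at 29.9 ± 2.27 TPM with the inhibitor, against 54.0 ± 1.31 TPM in vehicle. Of the planar polarity genes 3 of 10 rose, among them the cadherin CELSR3 (0.85 ± 0.09), and 3 fell, among them PRICKLE1 (-1.09 ± 0.30).

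With the inhibitor in A375 knockout cells, 22 of 77 pathway genes rose and 16 fell, which is 49.4% beside 37.5% of all genes. The receptors moved both ways, with 5 of 14 higher and 3 lower. FZD1 rose to 56.7 ± 3.05 TPM with the inhibitor, against 31.7 ± 1.05 TPM in vehicle, while FZD2 fell (log2 fold change -0.75 ± 0.08). Among the other targets 3 of 8 rose and 2 fell. CCND1 fell in this line too, to 224 ± 8.79 TPM with the inhibitor, against 321 ± 4.66 TPM in vehicle, whereas CD44 was slightly lower (-0.19 ± 0.03). Of the nuclear partners 2 of 11 rose and 5 fell, with TCF7L2, another DNA-binding partner of beta-catenin, higher by 0.43 ± 0.06 and the corepressor TLE3 lower at -0.46 ± 0.08. PRICKLE1 fell to 3.89 ± 0.879 TPM, against 7.71 ± 0.914 TPM in vehicle. No pathway gene was called with the inhibitor in either parent.

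Between clone and parent in vehicle, 16 of 81 pathway genes were higher and 13 lower in the HCT116 clone (35.8%, beside 21.3% of all genes). WNT16 was at 54.0 TPM in the HCT116 clone and 96.6 TPM in its parent (log2 fold change -0.81 ± 0.05), and FZD1 was at 11.9 TPM in the clone and 5.92 TPM in the parent (1.03 ± 0.10). Beta-catenin itself, CTNNB1, differed by only 0.17 ± 0.03. Of the other transcriptional targets 1 of 10 was higher and 2 were lower. In the A375 clone 10 of 77 were higher and 17 lower (35.1%, beside 16.3%). There 3 of 8 of the other targets were higher, with CD44 at 347 TPM in the clone and 285 TPM in the parent, and 4 were lower, with EPHB2 at 5.30 TPM in the clone and 8.79 TPM in the parent. The corepressor TLE4 was higher (0.48 ± 0.04) and TLE3 lower (-0.60 ± 0.07) in the A375 clone.

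**Figure D4:**
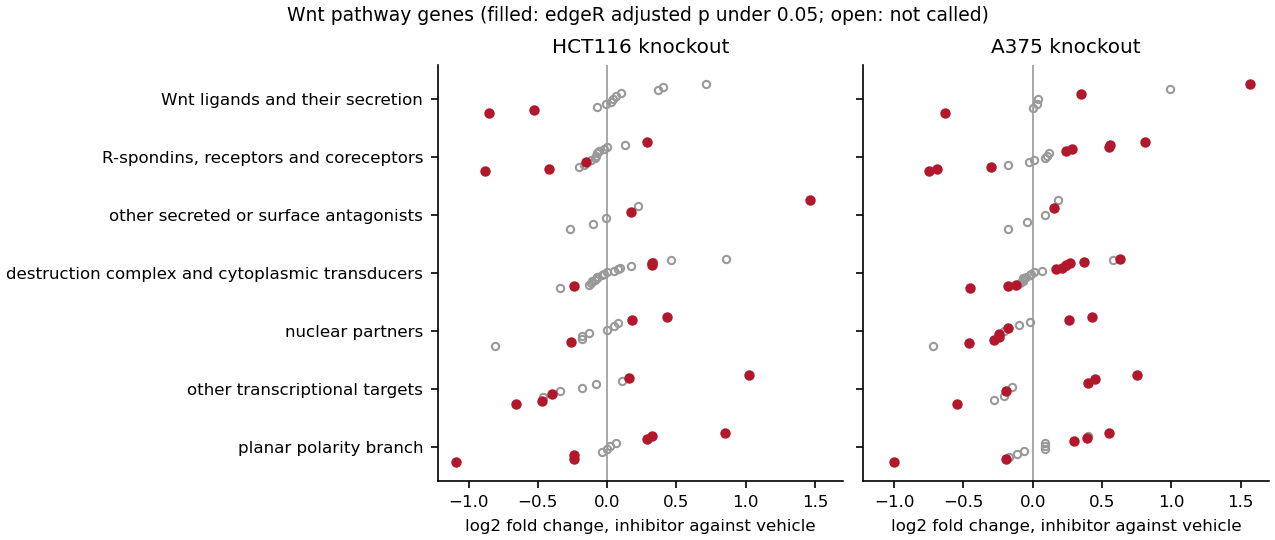
Log2 fold change with the inhibitor in knockout cells for each tested gene of the 7 Wnt lists, HCT116 left and A375 right, filled where edgeR's adjusted p was under 0.05. Called genes lie on both sides of 0 in most lists, 12 higher and 13 lower in HCT116 and 22 higher and 16 lower in A375.

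The genes most like DKK1 over the 8 groups were found from log2 CPM group means, centred within each line, as the smallest root mean square difference from DKK1 among 11436 genes with at least 1 CPM in each line. The 8 nearest were ZNF615 (0.49), NR2F2 (0.56), PPAN-P2RY11 (0.58), CORO2B (0.61), PRICKLE1 (0.61), GREB1L (0.64), TRHDE (0.65) and HAS3 (0.65), where the median gene differed by 1.15 and the 5th percentile by 1.00. All 8 varied over a wider range in HCT116 than in A375. NR2F2, a nuclear receptor, averaged 18.1 TPM in inhibitor-treated and 40.8 TPM in vehicle-treated HCT116 knockout cells, against 77.8 and 77.9 TPM in the parents. In A375, NR2F2 averaged 27.2 and 36.3 TPM in those knockout groups, against 37.3 TPM in both parents, and so lacked the rise of DKK1 in the vehicle-treated clone. PPAN-P2RY11 is a readthrough transcript that shares reads with its parts, and its value is uncertain: in TPM it averaged 6.22 in inhibitor-treated and 5.39 in vehicle-treated HCT116 knockout cells, the opposite order to its CPM. ZNF615 averaged 0.183 TPM or less in HCT116 knockout cells. Levels in TPM gave 7 of the same 8 genes, without HAS3, an enzyme that makes hyaluronan.

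**Figure D5:**
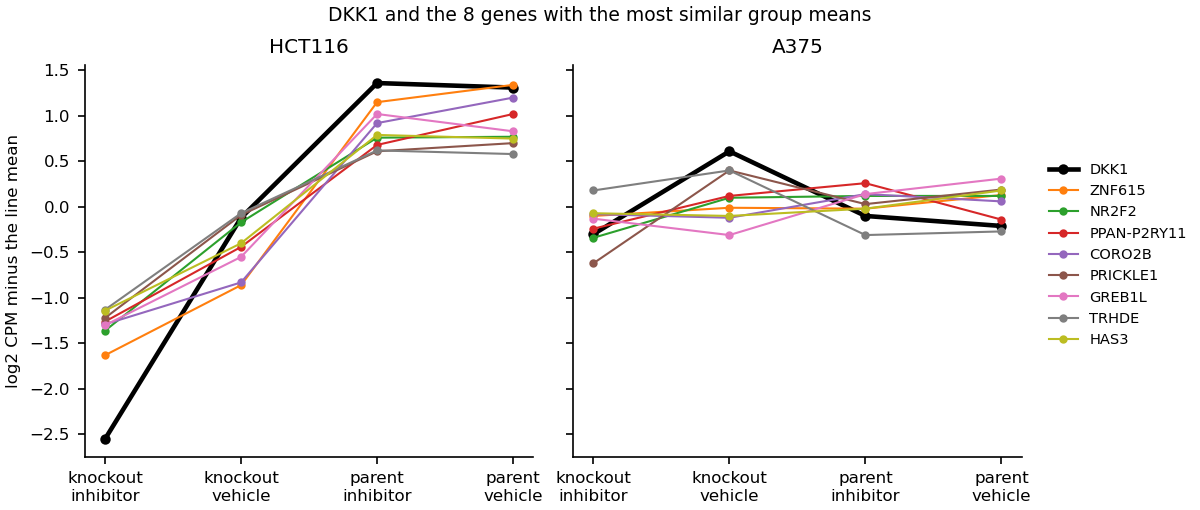
Group means in log2 CPM minus the mean of the line for DKK1 (thick black) and the 8 genes nearest to it, in 4 groups of HCT116 (left) and A375 (right). On this CPM scale all are lowest in inhibitor-treated knockout cells in HCT116 (in TPM, PPAN-P2RY11 is not), while DKK1 at 0.61 is the highest of the 9 in vehicle-treated A375 knockout cells.

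The transcript length that the authors' software weighted by isoform use was the same in every library for DKK1, at 1805 bases, for AXIN2 at 4232, for RNF43 at 4557 and for NKD1 at 8716. It varied from 3071.91 to 3267.98 bases for TCF7 and from 4158.1 to 4252.89 bases for PTK7 in HCT116. LEF1 ranged from 3036.89 to 3173.96 bases in A375.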

How the data were processed

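RNA was poly(A)-selected and made into libraries with a NEBNext Ultra RNA kit, per the labels' protocols. Reads were processed with STAR 2.4.2a and RSEM 1.2.23 on hg19, as listed in the submitters' processing notes; strand setting, annotation release and filters were not given in the sources used here. Deposited tables hold the authors' expected counts per gene, their TPM and a transcript length weighted by isoform use, per the file headers. Symbols came from a RefSeq table by gene ID (25200 of 25343 matched; the 143 others held at most 0.1782% of a library's counts). Expected counts were rounded and tested with edgeR 4.0.16 (R 4.3.3): TMM scaling, filterByExpr with a minimum count of 10 and total of 15, robust quasi-likelihood fit on 4 group means per line (12 libraries), or 8 means over 24 libraries for the comparison of lines, two-sided, Benjamini-Hochberg threshold 0.05 over all genes. The SE of a log2 fold change is approximate: its absolute value divided by the square root of edgeR's F. It is unreliable for fold changes very near 0 and for genes with few counts in a group. TPM served to set levels of genes side by side. Alternatives used DESeq2 1.42.0, limma 3.58.1 (voom, and log2(TPM + 0.1)), other size factors, no filter, only the libraries compared, a replicate block, and leaving out each library. The edgeR fits were also run on counts simulated with the spread edgeR estimated and far fewer changed genes than were called here. That check does not cover departures from this setting, and its outcome is not given here.

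The 10 genes, the pathway lists and the tests were chosen with earlier results of these data known. The clone difference between lines was added after its values were seen. Pathway genes named were among the 3 with the smallest adjusted p of their list in a comparison, apart from PRICKLE1 in HCT116, named as a gene most like DKK1. Genes most like DKK1 were ranked on log2 CPM (prior count 2). Replicates of a group differed by more than sampling noise (chi-square per gene 1.476 to 2.101).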

Additional observations from a re-analysis of the deposited data

Results flagged for a closer look

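The clone difference in vehicle differed between the lines, A375 minus HCT116, by edgeR's test of the difference itself: by 2.23 on the log2 scale for DKK1, by -1.26 for TCF7 and by -0.91 for PTK7. Each line has 1 clone, so a difference between the clones and one between the lines cannot be told apart. The inhibitor effect in knockout cells minus that in parent cells was flagged where edgeR's adjusted p was under 0.05. It was -2.48 ± 0.08 for DKK1 in HCT116, -1.01 ± 0.05 for DKK1 in A375 and 0.21 ± 0.05 for PTK7 in HCT116. Some larger values were not flagged, such as 0.32 ± 0.16 for AXIN2 in HCT116 and 0.78 ± 0.42 for TCF7 in A375. DKK1 was chosen from the values behind this contrast. The threshold therefore only picked which values to show, and they are a description. The DKK1 clone difference shares its vehicle-treated knockout libraries with that choice.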

How the results depend on the processing

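Of 626 values of the 10 genes in the tested comparisons, 624 stayed on their side of the threshold under the alternatives, with no called value changing sign. The exceptions were LEF1 and RNF43, whose clone difference between lines was called at 1.14 by log2(TPM + 0.1) with limma. Some of the 626 had little room to change. Among them were the parent comparisons with the inhibitor, where few or no genes were called. Others were clone differences between lines for genes with too few counts in a line. The LEF1 difference between A375 clone and parent was -0.19 without A375 knockout vehicle replicate 1, and the cause was not tested. Of 403 values in the comparisons given without a test, 401 stayed within a limit set from the approximate SE. That limit is about 1 SD for inhibitor against vehicle, but wider than 1 SD for knockout minus parent. TCF7 in HCT116 knockout cells with the inhibitor moved further, to -0.13 and -0.35 without inhibitor-treated replicates 2 and 3. In HCT116 knockout minus parent, where TCF7 was at -0.24, it ranged from -0.36 to -0.13. DKK1 ranged from -2.50 to -2.39 with the inhibitor in HCT116 knockout cells and from -0.93 to -0.88 in A375. Of 292 counts of genes called, 280 stayed within 1.5 times. With the inhibitor in the HCT116 parent, no gene was called, against 4 with no filter, 4 with only the libraries compared, 1 with DESeq2 and 1 with a replicate block, and 0 to 2 with each library left out. In the A375 parent 14 were called, against 6 by log2(TPM + 0.1) with limma and 9 to 15 with each library left out. DESeq2 called 1798 genes between the HCT116 clone and its parent, where edgeR called 2804, and 1371 between the A375 clone and its parent, where edgeR called 2196. Among pathway genes, 20 differed in inhibitor effect between HCT116 knockout and parent, against 13 by DESeq2 and 13 by log2(TPM + 0.1) with limma. The causes were not tested. Libraries with the same replicate number did not deviate together (correlations of -0.04 to 0.13 over 21 pairs, 1 over 0.1), so the replicate block is a check and not a pairing. Depth limits LGR5 in both lines, LEF1 and DKK3 in HCT116, and RNF43, AXIN2 and NKD1 in A375.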

Other observations

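Outside the 10 genes, other pathway genes differed between the parent lines, and those named here were chosen after their values were seen. WNT5A, a ligand of the beta-catenin-independent branch, averaged 20.4 ± 0.754 TPM in the vehicle-treated A375 parent and 0 TPM in the HCT116 parent, while WNT16 averaged 0.273 ± 0.244 TPM in A375 and 96.6 ± 1.09 TPM in HCT116 (SD, n = 3 each). The receptor FZD8 averaged 16.9 ± 0.712 TPM in A375 and 0.110 ± 0.142 TPM in HCT116, and the corepressor TLE4 averaged 35.7 ± 1.08 TPM in A375 and 0.0267 ± 0.0231 TPM in HCT116. SOX9, a target and regulator of the pathway in colon epithelium, averaged 1.22 ± 0.0473 TPM in A375 and 55.8 ± 3.44 TPM in HCT116. TCF7L2 was present in both, at 25.2 TPM in A375 and 84.6 TPM in HCT116. All 6 were called by edgeR, in a comparison in which 81.8% of 14637 genes and 81 of 89 pathway genes were called.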
